A study of Rattus norvegicus with 15 samples.

Results

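The second step of culture was measured by setting the 3 arrays of rat alveolar epithelial cells at day 4 of culture (D4) against the 3 arrays at day 2 (D2), across all 22523 probes of the platform. The members were taken from the sample labels alone and were 6 of the 15 arrays of the series, which held 3 arrays for each of 5 days (D0, D2, D4, D6, D8). The cells were labelled as alveolar epithelial type 2 (AT2) cells of male rats, isolated from the lung and left to differentiate in culture with no added treatment, so D4 and D2 shared every condition except the day. The array titles named AT2 only at D0 and AT1-like only at D8, and gave D2 and D4 as AT cells. D0 stood for cells at the start of culture and served to ask whether a change of the second step went on with the first (D2 minus D0) or turned it back. No label gave the strain, the age, the number of animals or which cell isolation an array came from. Arrays are named here by day, slide and position, so that D4 s1E was the D4 array at position E of slide 1.

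AT2 cells make surfactant, whose lipid they synthesise and pack into lamellar bodies, and they are the progenitors of the thin AT1 cells that line the surface for gas exchange. In culture on a flat support AT2 cells lose surfactant genes, spread, pass through intermediate forms and take on AT1 features. Cells hold their sterol content steady through a pair of opposed programs: SREBP transcription factors turn on the genes of cholesterol and fatty acid synthesis, and the liver X receptors, which sense oxidised sterols and act with RXR, turn on genes that export sterol, among them Abca1 and Abcg1.

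Each probe was read as a log2 signal after variance stabilising normalization (VSN), and limma compared the days with slide as a block, since each day had 2 arrays on slide 1 and 1 on slide 2 (D2 and D4) or slide 3 (the other days). Between 8792 and 9555 probes were detected on the D4 arrays and between 9090 and 9307 on the D2 arrays (detection p under 0.01), and the 6 arrays correlated at 0.949 to 0.99 over all probes. The number of arrays set the precision, and since no label says that they came from separate cell preparations, the p-values measure only the spread between these arrays. Slide and any difference of cell preparation cannot be told apart. The label was borne out in part by the markers. AT2 markers were still read at D4 but far below D0, their summed normalized signal, in units of 1000, being 294 to 353 at D0, 26.1 to 29.8 at D2 and 21.6 to 22.5 at D4, and AT1 markers summed to 81.9 to 88.7 at D0, 120 to 134 at D2 and 142 to 157 at D4. The summed signals of markers of other cells moved as well, and such a sum is led by its brightest members. Macrophage and leukocyte markers summed to 49.4 to 80 at D4, 18 to 42.3 at D2 and 31.6 to 40.1 at D0. Fibroblast markers summed to 10.9 to 31.2 at D4, 3.97 to 5.84 at D2 and 6.79 to 10.1 at D0. Airway markers summed to 9.36 to 17.3 at D4, 25.5 to 39.8 at D2 and 55.6 to 64.7 at D0, and erythroid markers to 0.436 to 3.12, 5.48 to 9.6 and 35.4 to 61.2. Mesothelial markers summed to 25.2 to 29.4 at D4, 26.2 to 35.4 at D2 and 2.95 to 3.5 at D0. Of the 7 airway members 1 was called, lower, while 3 were above 0 and 5 were detected on no D4 array. Of the 6 erythroid members none was called and 2 were above 0. In such bulk RNA, more cells of a type and more RNA per cell cannot be told apart.

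At the second step 922 of 22523 probes changed (4.09%; Benjamini-Hochberg adjusted p under 0.05), 510 of them higher at D4 (2.26% of all probes) and 412 lower (1.83%). Higher probes made up 55.3% of the calls and 40.8% when the log2 signals were only scaled to a common median, with 648 higher and 940 lower. The first step had changed 5750 probes (25.5%), and 5887 (26.1%) differed between D4 and D0. The median size of a called change was 1.14 on the log2 scale, 575 called probes changed by at least 1, and the median probe of the array did not move (0.004). In 834 of the 922 the D4 and D2 arrays did not overlap, against 18% of all probes. Among the called probes 842 were detected on every array of whichever day was brighter and 140 on no array of the dimmer day. A single gene symbol was known for 696, which named 689 genes, 409 higher and 280 lower. Fitting without the slide block left 314 probes, and leaving out any 1 of the 6 D2 and D4 arrays left 413 (without D4 s1K) to 613 (without D2 s1C).

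A majority of the called probes had already changed between D0 and D2, and of these more turned back than went on. Of the 591 probes called in both steps, 353 (59.7%) changed in the direction opposite to the first step and 238 in the same direction. The other 331 were not called in the first step. Of the 412 probes that fell at D4, 215 (52.2%) had risen at the first step, 63 (15.3%) had already fallen and 134 (32.5%) had not been called. Of the 510 that rose, 138 (27.1%) had fallen at the first step, 175 (34.3%) had already risen and 197 (38.6%) had not been called. The turn back often reached the D0 level as far as the test could tell: 144 of the 215 probes that fell after rising were no longer called against D0, 64 stayed on the D2 side of D0 and 7 passed it, and the 138 that rose after falling split into 70, 59 and 9. Both steps use the same 3 D2 arrays, so a D2 reading that is too high or too low pushes them in opposite directions, and the counts are given with no test. Read with no shared array, as D4 minus D2 on slide 2 and D2 minus D0 on slide 1, all 591 probes kept the direction of both steps. These arrays had helped to choose the probes, which favours such agreement. It therefore does not show that the counts are free of the effect of the shared D2 arrays. The plot of the second step against the first shows these classes.

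**Figure D1:**
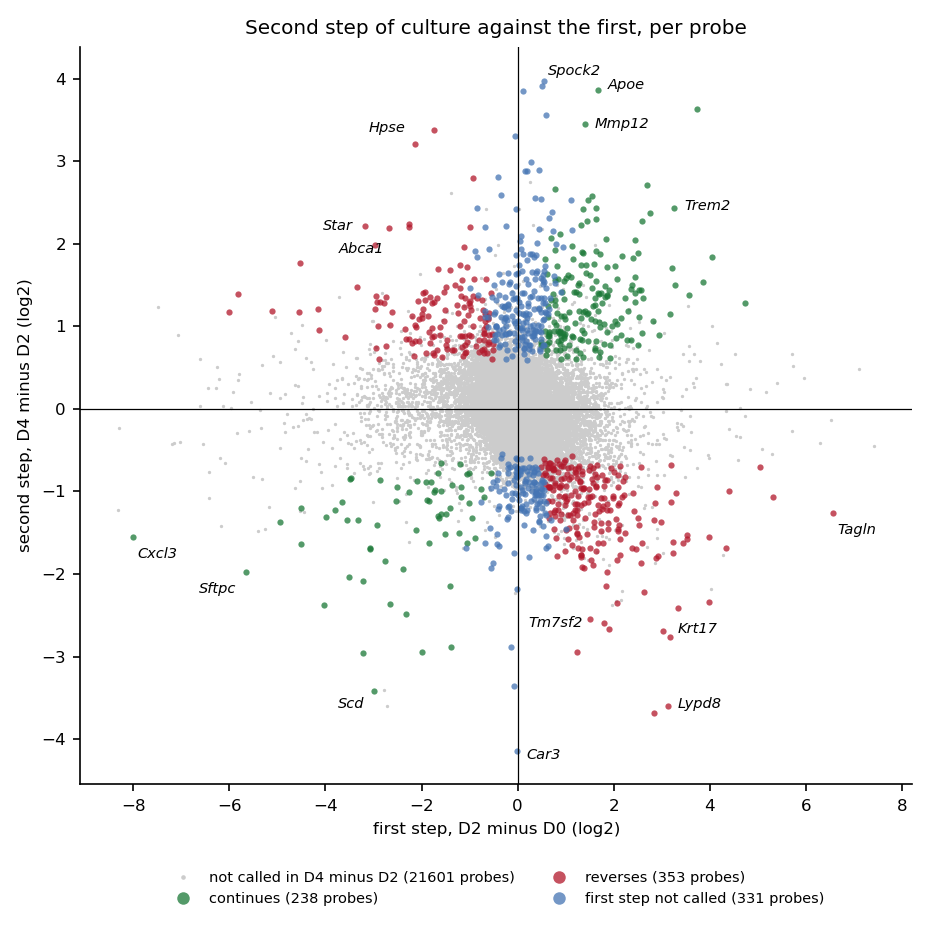
Log2 change from D2 to D4 (vertical) against log2 change from D0 to D2 (horizontal), 1 point per probe, coloured by whether the second step continued (238 probes) or reversed (353) a called first step, or had no called first step (331). The lower right quadrant, where a first rise was followed by a fall, holds the largest reversing group (215 probes), and grey points were not called in the second step.

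Cholesterol synthesis turned as a group, in a list chosen, like the others, with earlier results of these data known. All 17 measured genes of sterol synthesis and uptake were lower at D4 (median change -1.21, against 0.004 for all probes), and 12 of the 17 passed the test, all downward. At the first step, where 25.5% of all probes were called, 15 of the 17 had risen (median 1.31), so 11 of the 12 calls reversed a rise. Of the 12, Idi1, which isomerises the first isoprenoid unit, was the one not called at the first step. The count stood between 10 and 12 when any 1 D2 or D4 array was left out, and at 9 without the slide block.

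Along the pathway the fall reached early and late enzymes. Acat2, which makes acetoacetyl-CoA at the entry, read 11.33, 11.61 and 11.65 on the D4 arrays and 13.39, 13.09 and 13.43 on the D2 arrays, and its D0 arrays had read 11.93, 12.23 and 11.82. The D4 arrays lay below every D2 array and below the D0 arrays as well. Acat2 changed by -1.77 ± 0.19 (SE; adjusted p = 0.000208) and was not called against D0 (-0.46, adjusted p = 0.102). Of the mevalonate enzymes Pmvk changed by -1.23 ± 0.19 (adjusted p = 0.00228), Mvd by -1.29 ± 0.2 (0.00228) and the farnesyl diphosphate synthase Fdps by -1.06 ± 0.18 (0.00507). Idi1 read 10.54, 10.44 and 10.74 at D4 and 12.1, 11.81 and 12.36 at D2, a change of -1.51 ± 0.26 (0.00453), and ended below its D0 level (-1.94, 6.04e-05).

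Enzymes of the sterol end of the pathway fell too, and early and late enzymes were not compared by a test. Tm7sf2, a sterol C14-reductase, had the largest change of the list. It read 7.76, 7.81 and 7.67 on the D4 arrays and 10.07, 10.07 and 10.73 on the D2 arrays, after 8.54, 9.26 and 8.54 at D0. The 3 D4 arrays agreed closely and stood below D0 too. The change was -2.54 ± 0.27 (adjusted p = 0.00017), its second probe gave -2.67, and D4 was lower than D0 (-1.03, 0.0108), 1 of the 7 falls that passed the D0 level. Cyp51, the lanosterol demethylase, read 6.68, 7 and 6.99 at D4 and 8.19, 8.84 and 8.71 at D2, a change of -1.69 ± 0.32 (0.00856), and the keto-reductase Hsd17b7 changed by -1.57 ± 0.25 (0.00279). Nsdhl, the sterol decarboxylase, read 9.74, 9.68 and 9.92 at D4 and 11.15, 10.85 and 10.96 at D2. It did not come back fully, since after a change of -1.21 ± 0.17 (0.00124) it still stood above D0 by 0.55 (0.0284). Dhcr7, which closes the pathway, changed by -1.37 ± 0.23 (0.00448). The calls of Sqle (-1.13 ± 0.25, adjusted p = 0.0189) and Msmo1 (-1.04 ± 0.21, 0.0125) were less firm and were lost for Sqle without D4 s1E, D4 s1K, D2 s1C or D2 s2A (highest adjusted p 0.098) and for Msmo1 without D4 s1E, D4 s1K, D2 s1C or D2 s2A (highest adjusted p 0.0661). Fdft1 (-0.82, adjusted p = 0.081), Sc5d (-0.71, 0.306), Ebp (-0.5, 0.251), Stard4 (-0.49, 0.166) and the regulator Srebf2 (-0.64, 0.165) did not pass.

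Because members of this pathway moved together, the RefSeq promoters of the list (rat build GRCr8, 250 bases before to 50 after the start, 13 of the 17 genes in the table) were searched on both strands for letters known from sterol control. The sterol regulatory element written TCACNCCAC was in 0 of 13 and in 1.13% of all 27457 promoters. Its first 7 letters, TCACNCC, which lie within it, were in 5 of 13 and in 14.7% of all promoters. The CCAAT box of the factor NF-Y was in 10 of 13 and in 37.7%. Of the 10 promoters whose gene was called, 4 held TCACNCC and 7 held CCAAT. Stretches of 120 bases of these 4 are shown to give the letters their place, 5′ to 3′ on the strand of the gene, with TCACNCC or its reverse complement GGNGTGA and CCAAT or ATTGG in capitals. The match began 100 bases before the RefSeq start in Acat2, 171 in Mvd, 145 in Cyp51 and 190 in Msmo1. Letters in a window describe the sequence and do not show that a factor binds.
Acat2 (chr1:50100700-50100819, plus strand): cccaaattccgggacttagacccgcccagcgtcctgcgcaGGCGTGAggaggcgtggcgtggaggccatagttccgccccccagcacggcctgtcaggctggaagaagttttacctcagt
Mvd (chr19:67415066-67415185, minus strand): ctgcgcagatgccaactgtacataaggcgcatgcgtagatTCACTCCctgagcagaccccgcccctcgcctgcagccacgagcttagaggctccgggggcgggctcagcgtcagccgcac
Cyp51 (chr4:30991508-30991627, plus strand): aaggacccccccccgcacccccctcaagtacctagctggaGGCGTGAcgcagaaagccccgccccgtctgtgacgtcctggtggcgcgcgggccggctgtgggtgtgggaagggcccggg
Msmo1 (chr16:29746883-29747002, plus strand): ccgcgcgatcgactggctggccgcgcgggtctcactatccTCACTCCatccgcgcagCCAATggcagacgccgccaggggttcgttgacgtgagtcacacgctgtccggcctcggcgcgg

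Acat2 and Cyp51 carried the letters as GGCGTGA, so on the other strand, and Mvd and Msmo1 as TCACTCC. Msmo1 also had a CCAAT box within the window shown. These 4 genes changed by -1.77, -1.29, -1.69 and -1.04, with the call of Msmo1 lost without D4 s1E, D4 s1K, D2 s1C or D2 s2A (highest adjusted p 0.0661). The promoter of Tm7sf2, which changed most, held CCAAT and no TCACNCC, and that of Dhcr7 held neither.

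Genes of fatty acid synthesis and desaturation fell in smaller number, 5 of 18 measured (median -0.35), and their first steps differed. Scd, the stearoyl-CoA desaturase, had 1 of the largest falls. It read 8.26, 7.89 and 8.37 on the D4 arrays and 11.72, 11.32 and 11.75 on the D2 arrays, and had been at 14.24, 15.09 and 14.44 at D0. No array overlapped with those of another of these days. The second change was -3.42 ± 0.26 (adjusted p = 1.64e-05) and the first -2.99 (1.58e-06), so Scd continued downward. Fads2, the delta-6 desaturase, read 6.68, 6.52 and 6.62 at D4 and 8.24, 7.93 and 8.49 at D2. It changed by -1.62 ± 0.27 (0.00416) after a first rise of 1.67, and D4 minus D0 was 0.06 (0.908). Acss2, which makes acetyl-CoA from acetate, was not called at the first step (0.06, 0.854) and then changed by -1.2 ± 0.18 (0.00234). Fads1 changed by -0.88 ± 0.2 (0.0268) and Tecr by -0.68 ± 0.14 (0.0138), with the call lost for Fads1 without D4 s1E, D4 s2F, D2 s1D or D2 s2A (highest adjusted p 0.127) and for Tecr without D4 s1E, D4 s2F or D2 s1D (highest adjusted p 0.0818).

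The list of sterol export and lipoprotein genes moved the other way, with 6 of 13 measured members higher, none lower and a median of 0.75, and with 3 higher when D2 s2A was left out. Abca1, the transporter that loads cellular cholesterol onto apolipoprotein A1, read 10.5, 10.02 and 9.61 on the D4 arrays and 7.94, 8.09 and 7.53 on the D2 arrays, after 10.62, 10.71 and 10.28 at D0. It rose by 2.19 ± 0.17 (adjusted p = 1.64e-05) after a first change of -2.68 and was still called below D0 (-0.49, 0.0454). Abcg1, which passes sterol to larger particles, read 13.08, 13.42 and 12.5 at D4 and 11.82, 12.07 and 10.73 at D2. It rose by 1.46 ± 0.29 (0.0124) after a first change of -1.19 and was not called against D0, and its call was lost without D4 s1K or D2 s2A (highest adjusted p 0.0733). Pltp, the phospholipid transfer protein, continued upward by 1.26 ± 0.16 (0.00063) from a first rise of 0.77. Nr1h3 and Nr1h2, which encode the liver X receptors, changed by 0.3 (0.536) and 0.12 (0.814) and did not pass.

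Apoe, the lipid carrier of cells and plasma, had the second largest rise. It read 14.09, 12.2 and 11.99 on the D4 arrays and 10.34, 8.75 and 7.6 on the D2 arrays. The arrays of a day differed widely, yet the lowest D4 array exceeded the highest D2 array. It rose by 3.86 ± 0.58 (adjusted p = 0.00197), continuing a first rise of 1.67. Apoc1, a smaller apolipoprotein, was detected on no D2 array and read 8.71, 6.56 and 7.23 at D4, at least 2.25-fold higher there than the lowest detected signal (adjusted p = 0.0108). Its call was lost without D4 s1E or D2 s2A (highest adjusted p 0.0571). Lipa, the lysosomal acid lipase, was detected on 2 D4 arrays and no D2 array and was at least 1.1-fold higher at D4 (0.0293), with the call lost without D4 s1E, D4 s1K, D2 s1C, D2 s1D or D2 s2A (highest adjusted p 0.158). Macrophages express Apoe, Apoc1 and Lipa too, and macrophage and leukocyte markers rose between the same arrays (9 of 17 members, summed signals above). Their part in these changes was not tested.

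The called genes of fatty acid use and storage mostly turned back upward. Of 17 genes of fatty acid oxidation and PPAR control 4 rose and none fell (median 0.27), and 3 of the 4 reversed a first fall. Fabp4, a fatty acid carrier, rose by 2.2 ± 0.25 (adjusted p = 0.000284) with D4 arrays at 13.63, 13.26 and 13.06 and D2 arrays at 11.28, 11.63 and 10.43. The fatty acid transporter Cd36 rose by 1.37 ± 0.28 (0.0141) after a first change of -2.94, the pyruvate dehydrogenase kinase Pdk4 by 1.77 ± 0.45 (0.0431) after -4.52, and Cpt1a, which admits fatty acids to mitochondria, by 0.69 ± 0.18 (0.0458) after -0.81. These 3 calls depended on single arrays, being lost for Cd36 without D4 s1E, D4 s2F, D2 s1D or D2 s2A (highest adjusted p 0.0735), for Pdk4 without any 1 of the 6 arrays (highest adjusted p 0.153) and for Cpt1a without any 1 of the 6 arrays (highest adjusted p 0.197). The call of Pdk4 was also lost with the authors' normalized values, quantile normalization and median scaling. In the glycerolipid list 3 of 14 rose. Mgll, the monoacylglycerol lipase, continued upward by 1.53 ± 0.26 (0.0042), and the lipid droplet coat Plin2 by 0.76 ± 0.16 (0.0167) and Gpd1 by 0.99 ± 0.22 (0.0196) turned back upward, with the call lost for Plin2 without D4 s1E, D4 s1K or D2 s2A (highest adjusted p 0.0863) and for Gpd1 without D4 s1K, D4 s2F, D2 s1C or D2 s2A (highest adjusted p 0.115). Star, which carries cholesterol into mitochondria, read 7.98, 8.86 and 8.06 at D4 and 5.95, 6.69 and 5.6 at D2, a rise of 2.22 ± 0.39 (0.00572) after a first change of -3.17.

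**Figure D2:**
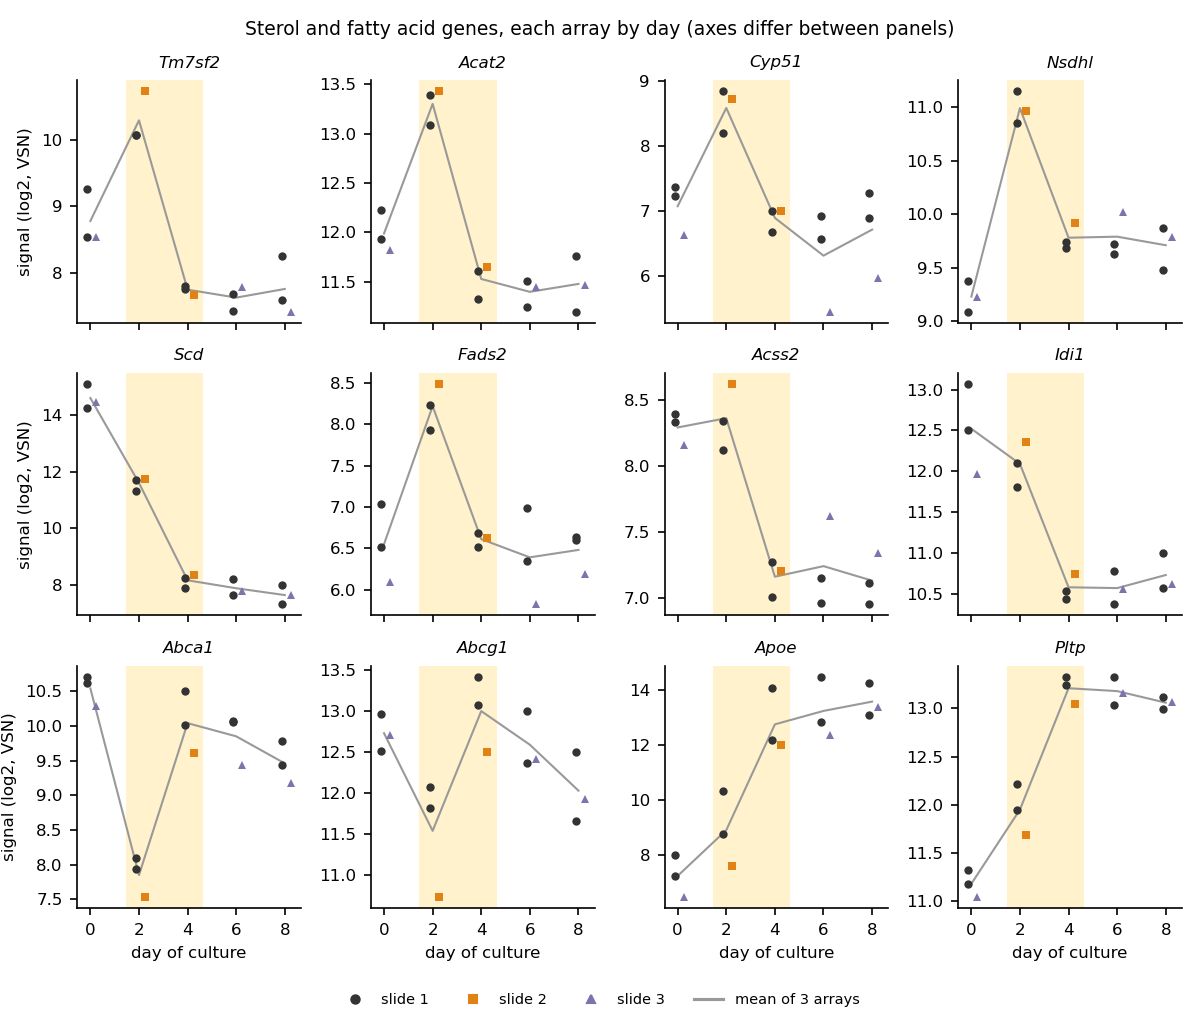
Log2 signals of 12 sterol and fatty acid genes on each array (points, shaped by slide) with the mean of 3 arrays as a line, against day of culture, D2 and D4 shaded. Tm7sf2, Acat2, Cyp51, Nsdhl and Fads2 peaked at D2, Scd fell at both steps, and Abca1 and Abcg1 had their low point at D2.

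Markers of the alveolar cell types that were called moved toward AT1 and away from AT2 cells. Of 19 AT1 markers 3 rose and none fell (median 0.33), and of 12 AT2 markers 2 fell and none rose (median -0.71). The first step, at which 25.5% of all probes were called, had already raised 10 of the AT1 and lowered 11 of the AT2 markers. Of the 3 AT1 markers that rose at the second step, Spock2, a proteoglycan, was the one with no called first step. It read 13.11, 13.56 and 12.73 on the D4 arrays and 9.21, 9.35 and 9.13 on the D2 arrays, and D0 had read 8.6, 9.74 and 7.83. Its rise of 3.91 ± 0.31 (adjusted p = 1.73e-05) followed a first step that was not called (0.51, 0.28), and was the largest rise of any named gene. Col4a3, a basement membrane collagen chain, was detected on no D0 array and continued upward by 1.54 ± 0.28 (0.00604) after 3.85. Aqp5, the apical water channel of AT1 cells, read 11.74, 11.59 and 11.1 at D4 and 10.64, 10.94 and 10.37 at D2. Its rise of 0.83 ± 0.21 (0.0453) followed 2.27 at the first step and lost its call with median scaling and without D4 s1E, D4 s1K, D4 s2F, D2 s1C or D2 s1D (highest adjusted p 0.221). Of the 19 AT1 markers 16 were above 0, and the following did not pass at the second step. Pdpn changed by 0.15 (adjusted p = 0.712), Ager by 0.07 (0.919), Akap5 by 1.01 (0.106) and Clic5 by 0.76 (0.152), after first changes of 0.72, 1.91, 4.04 and 3.56. Cav1 was detected on 1 D4 array and no D2 array and was not called (0.23, 0.814).

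Of the AT2 genes, Sftpc, the surfactant protein restricted to AT2 cells, read 7.97, 8.03 and 7.09 at D4 and 10.19, 10.44 and 8.38 at D2, after 15.39, 15.37 and 15.25 at D0. The slide 2 arrays were lowest on both days. The second fall was 1.98 ± 0.5 (adjusted p = 0.0407), after a first change of -5.66, and the call was lost without D4 s1E, D4 s1K, D4 s2F, D2 s1C or D2 s1D (highest adjusted p 0.191). Lamp3, of the lamellar body membrane, fell by 1.84 ± 0.32 (0.00521) after -2.76, and its call held whichever array was left out. Sftpb changed by -1.46 (0.0514), Sftpa1 by -1.08 (0.256), Slc34a2 by -0.43 (0.709) and Sftpd by 0.19 (0.856), none of which passed. Class II antigen presentation genes, which AT2 cells also express, went on falling in 3 of 7 members. Cd74, the invariant chain, read 8.07, 8.25 and 8.22 at D4 and 9.75, 10.14 and 9.58 at D2, a change of -1.64 ± 0.2 (0.000471) after -4.51, and RT1-Ba changed by -1.22 ± 0.17 (0.00107) and RT1-Db1 by -0.85 ± 0.18 (0.015). The call of RT1-Db1 was lost without D4 s1E, D4 s1K, D2 s1C or D2 s1D (highest adjusted p 0.0887).

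Of 15 genes of sodium, chloride and water transport 2 rose (Aqp5 and Sgk1) and 2 fell (Kcne2 and Fxyd3). Kcne2, a potassium channel subunit, was detected on no D4 array and was at least 3.04-fold lower there (adjusted p = 0.00212), and Slc26a4, the anion exchanger pendrin, was at least 3.82-fold lower (9.62e-05), with D4 arrays at 5.09, 5.59 and 5.45 and D2 arrays at 8.79, 8.12 and 7.88. The bounds set the D2 mean against the lowest detected signal of the D4 arrays. Fxyd3, a regulator of the sodium pump, read 10.72, 10.72 and 10.75 at D4 and 12.08, 12.26 and 11.81 at D2 and fell by 1.32 ± 0.17 (0.000639) after -1.64. Cldn3, a tight junction claudin, fell by 1.7 ± 0.21 (0.000508) after -3.07. Sgk1, the kinase that activates sodium channels, went the other way and rose by 1.5 ± 0.24 (0.00283) after a first change of -1.31, and was not called against D0 (0.2, 0.61). Its call was lost without the slide block (adjusted p 0.113).

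Krt17 and a few contractile genes that had risen at D2 fell back. Krt17, a keratin of injured and basal epithelium, read 7.42, 7.14 and 6.56 on the D4 arrays and 10.44, 10.04 and 8.71 on the D2 arrays, after 6.67, 6.81 and 6.63 at D0. The lowest D2 array exceeded the highest D4 array, and D4 lay near D0. Krt17 fell by 2.69 ± 0.27 (adjusted p = 0.000118) after a rise of 3.03 and was not called against D0 (0.34, 0.418). In the list of Krt8-positive transitional genes, Krt17 and Krt8 were the 2 of 10 members that fell, and Krt8, not called at the first step (-0.19, 0.473), changed by -0.72 ± 0.16 (0.0234) with the call lost without any 1 of the 6 arrays (highest adjusted p 0.107). Of 20 contractile and actin genes 3 fell (median -0.4) and 17 were below 0. Tagln, an actin-binding protein of contractile cells, read 12.93, 12.53 and 13.08 at D4 and 14.21, 14.24 and 13.85 at D2. It fell by 1.26 ± 0.25 (0.0122), a small part of its first rise of 6.56. Myl9, a myosin light chain, fell by 2.34 ± 0.5 (0.0173) after a first rise of 3.99. Tagln2 fell by 1.11 ± 0.21 (0.00831) with no called first step (0.55, 0.0759). The calls were lost for Tagln without D4 s1K, D2 s1C or D2 s1D (highest adjusted p 0.0769), for Myl9 without D4 s1K, D2 s1C, D2 s1D or D2 s2A (highest adjusted p 0.0984) and for Tagln2 without D4 s1K (adjusted p 0.0525). Annexin Anxa3 (-1.38 ± 0.24, 0.00507), the integrin subunit Itgb4 of hemidesmosomes (-0.96 ± 0.2, 0.015) and the ligand Wnt4 (-1.55 ± 0.18, 0.000284) fell after a called first rise, and none of the 3 was called against D0. The call of Itgb4 was lost without D4 s1E, D4 s1K, D4 s2F, D2 s1C or D2 s2A (highest adjusted p 0.0678). Without the slide block the calls of Itgb4 (adjusted p 0.205) and Wnt4 (0.134) were lost. Csf1, the macrophage growth factor, read 9.55, 9.71 and 9.61 at D4 and 11.58, 11.2 and 10.67 at D2 and fell by 1.53 ± 0.24 (0.00303), which left it above D0 by 1.98 (2.99e-05).

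Macrophage and leukocyte markers rose in 9 of 17 members, with none lower, all 17 above 0 and a median of 1.35, and they carried 3 continuing rises and 6 with no called first step. Trem2, a lipid-sensing receptor of macrophages, read 12.59, 12.18 and 12.13 on the D4 arrays and 10.3, 9.92 and 9.38 on the D2 arrays, after 6.98, 6.68 and 6.18 at D0. It rose by 2.43 ± 0.23 (adjusted p = 9.3e-05) after 3.26. The leukocyte genes Cd53 (2.01 ± 0.2, 0.000112), Laptm5 (1.86 ± 0.24, 0.000639), Ptprc (CD45; 1.35 ± 0.21, 0.00234) and the mannose receptor Mrc1 (1.88 ± 0.25, 0.000879) rose at this step with no called change at the first. Laptm5 read 12.28, 12.68 and 11.85 at D4 and 10.45, 11.15 and 9.62 at D2. In these genes the D4 and D2 arrays did not overlap, and the slide 2 array was the lowest of its day. Tyrobp (1.82 ± 0.32, 0.0055), the adaptor of Trem2, rose too, and the calls of Aif1 (1.62 ± 0.31), Fcer1g (1.43 ± 0.33) and Spi1 (1.13 ± 0.24) were lost for Aif1 without D2 s2A (adjusted p 0.0539), for Fcer1g without D4 s1K, D4 s2F, D2 s1C or D2 s2A (highest adjusted p 0.115) and for Spi1 without D4 s1K, D4 s2F, D2 s1C or D2 s2A (highest adjusted p 0.0965). The complement chains C1qa, C1qb and C1qc changed by 0.66, 1.73 and 1.17 and did not pass (adjusted p = 0.716, 0.299 and 0.455), and Marco was detected on no array of D0, D2 or D4. Without the slide block 3 of these 9 calls were made.

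Genes that macrophages share with other cells rose beside these markers. Lysosome genes rose in 9 of 20 members with none lower (median 0.64), and 7 of the 9 continued a first rise. Ctsk, a cysteine protease, rose by 1.76 ± 0.17 (adjusted p = 0.000108), with D4 arrays at 11.58, 11.12 and 10.73 and D2 arrays at 9.49, 9.74 and 8.93. The protease Ctss rose by 1.42 ± 0.23 (0.00371), the sphingolipid activator precursor Psap by 1.05 ± 0.19 (0.00604) and the membrane protein Lamp2 by 0.9 ± 0.16 (0.00517). Leaving out 1 array left between 4 (without D4 s1K or D2 s1C) and 7 of the 9, and 2 were called without the slide block. Mmp12, the macrophage elastase, read 12.36, 11.67 and 10.5 at D4 and 9.13, 8.34 and 6.73 at D2, a rise of 3.45 ± 0.29 (3.62e-05) after 1.4. The arrays of a day spread widely, and the slide 2 array was the lowest on both days. Cfp, properdin of the alternative complement pathway, read 10.79, 11.46 and 10.67 at D4 and 7.41, 8.11 and 7.26 at D2, and rose by 3.38 ± 0.26 (1.64e-05) after a first change of -1.75, which put D4 above D0 by 1.63 (0.00033). Cfd, factor D of the same pathway, rose by 2.8 ± 0.29 (0.000154) after -0.92. The part of the macrophage markers in these rises was not tested.

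Of 29 fibrillar and interstitial matrix genes 4 rose (Col1a2, Col8a1, Spp1 and Sparc) and Ltbp1 fell, with a median of 0.57, being 0.92 on slide 1 and 0.05 on slide 2. Fibroblast markers rose in 2 of 11 members (Col1a2 and Gpc3; median 1.2), while 5 of the 11 were detected on no D4 array. Col1a2, a chain of type I collagen, read 14.39, 12.67 and 12.38 at D4 and 11.62, 10.68 and 10.49 at D2. D4 s1E was far above the other 2 D4 arrays, and the same array held the highest Col1a1 (11.64, 9.43 and 8.91 at D4, 9.02, 8.3 and 8.89 at D2) and Col3a1 (9.95, 7.6 and 7.38 and 5.81, 6.26 and 5.01), which did not pass (adjusted p = 0.499 and 0.0846). The gap in Col1a2 was not confined to D4. A slide 1 array was also the highest at D2, at D6 (14.91, 13.56 and 12.84) and at D8 (15.15, 14.25 and 13.34). Col1a2 rose by 2.22 ± 0.48 (adjusted p = 0.0173) and lost its call without D4 s1E, D4 s2F or D2 s1D (highest adjusted p 0.0866). Col8a1, a short-chain collagen, was detected on no D2 array and at least 2.91-fold higher at D4 (0.00484), with D4 s1E again the highest of 8.91, 7.67 and 7.04. The call held whichever array was left out but was lost with the authors' normalized values, quantile normalization, median scaling and no slide block (highest adjusted p 0.128). Sparc, a matricellular protein, rose by 0.9 ± 0.16 (0.00505) after 2.94, and Gpc3, a glypican, rose by 1.2 ± 0.2 (0.00363) after -1.51. Both kept their calls whichever array was left out, and Sparc lost its call without the slide block (0.0884). Spp1, osteopontin, rose by 1.28 ± 0.32 (0.041), lost without D4 s1E, D4 s1K, D4 s2F, D2 s1D or D2 s2A (highest adjusted p 0.181). The latent TGFB binding protein Ltbp1 fell by 1.66 ± 0.36 (0.018), lost without D4 s1E, D4 s1K or D2 s2A (highest adjusted p 0.0994). Fibroblast marker sums on the same arrays were 10.9 to 31.2 at D4 and 3.97 to 5.84 at D2, in units of 1000, and their part was not tested.

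**Figure D3:**
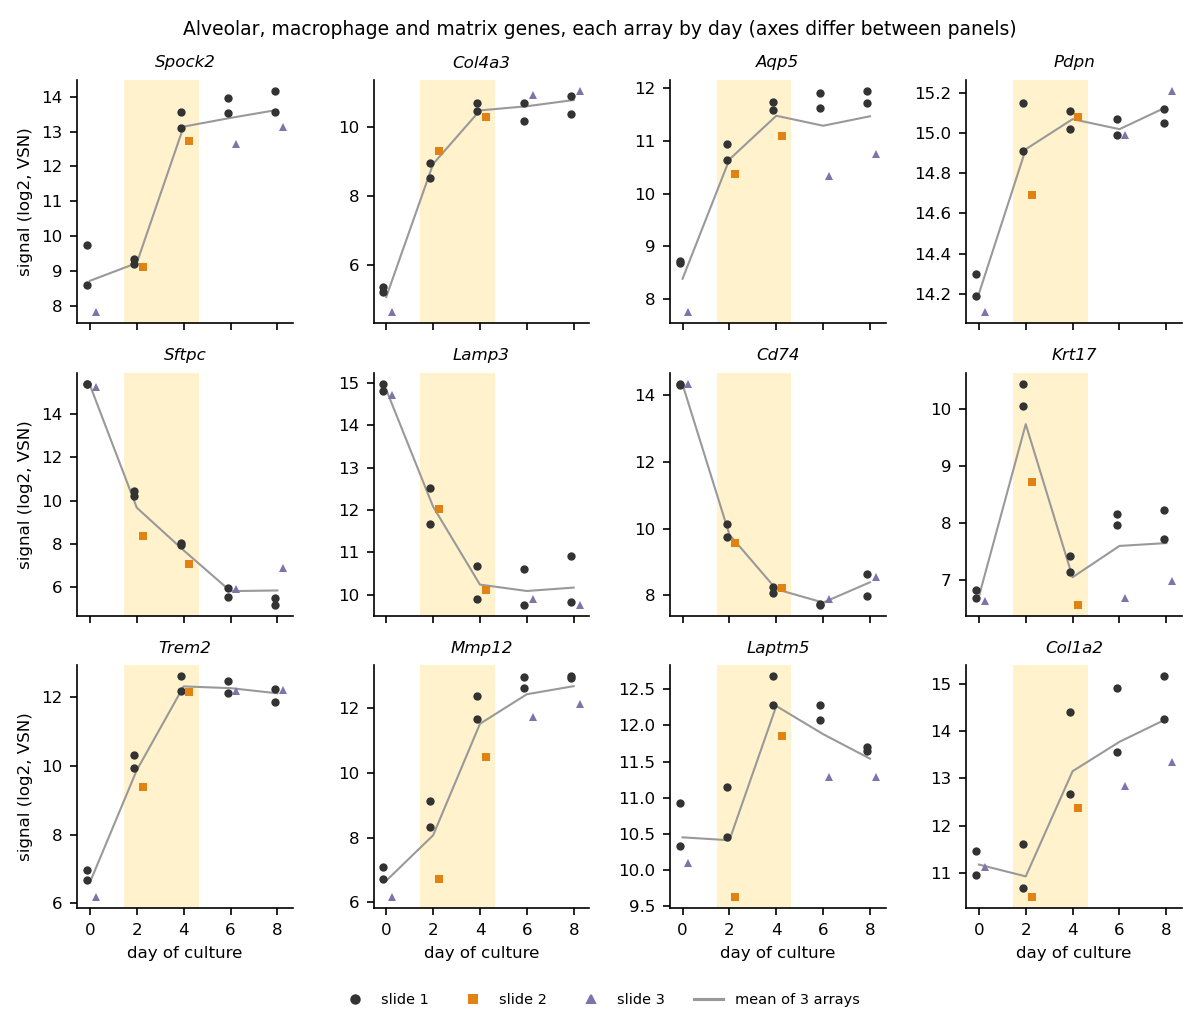
Log2 signals of 12 alveolar, macrophage and matrix genes on each array (points, shaped by slide) with the mean of 3 arrays as a line, against day of culture, D2 and D4 shaded. Spock2 and Laptm5 rose at the second step with no called first step, Krt17 peaked at D2, and Sftpc and Cd74 fell at both steps. In Col1a2 a slide 1 array read highest on each day from D2 to D8.

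Some stress and growth factor response genes that had fallen at the first step rose at the second. Of 22 NRF2 target and antioxidant genes 7 had fallen and 2 had risen at the first step, at which 25.5% of all probes were called. At the second 4 rose, where 2.26% of all probes were called higher, and none fell (median 0.30). All 4 reversed a first fall. Nqo1, a quinone reductase, read 13.9, 13.94 and 14.15 on the D4 arrays and 12.34, 12.55 and 12.4 on the D2 arrays, and rose by 1.57 ± 0.15 (adjusted p = 0.000108) after -0.91, above D0 by 0.66 (0.00539). Hmox1, the haem oxygenase, rose by 1.13 ± 0.21 (0.00831) after -2.19 and stayed below D0 (-1.06, 0.00193). Gclc (0.87 ± 0.22, 0.0399) and Cat (1.15 ± 0.26, 0.0259) lost their calls, Gclc without any 1 of the 6 arrays (highest adjusted p 0.175) and Cat without D4 s1E, D4 s1K, D4 s2F, D2 s1C or D2 s1D (highest adjusted p 0.125). Gdf15, a stress-induced cytokine, rose by 1.99 ± 0.31 (0.00261) after -2.97, and the small heat shock protein Hspb1 by 1.31 ± 0.2 (0.00246) after -2.08. Gdf15 and Hspb1 stayed below D0 (-0.98 and -0.78, adjusted p = 0.0318 and 0.0109). Of 15 BMP and ID genes 6 had fallen and 3 had risen at the first step, and 4 rose and none fell at the second. Id3, an inhibitor of bHLH factors, read 8.76, 8.62 and 8.49 at D4 and 7.38, 7.42 and 7.33 at D2, a rise of 1.24 ± 0.18 (0.00164) after which it was not called against D0 (0.13, 0.66), and Id2 rose by 0.82 ± 0.15 (0.00592) and stayed below D0. Fstl1 (1.44 ± 0.27, 0.00718) and the BMP antagonist Nog (0.83 ± 0.2, 0.0312) continued upward, with the call of Nog lost without any 1 of the 6 arrays (highest adjusted p 0.134). Without the slide block the calls of Hmox1 (adjusted p 0.111), Id2 (0.531) and Fstl1 (0.175) were lost as well.

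Inflammatory genes gave few calls. Of 28 members 20 had fallen at the first step, at which 25.5% of all probes were called. At the second Cxcl3, Nfkbiz, Ccl5 and Csf1 fell, Cx3cl1 rose and the other 23 did not pass (median -0.19). The rise of Cx3cl1 (0.93 ± 0.23, adjusted p = 0.0355) was lost without D4 s1E, D4 s1K, D4 s2F, D2 s1D or D2 s2A (highest adjusted p 0.151). Cxcl3, a neutrophil chemokine, had changed by -8.01 at the first step and was detected on no D4 array (at least 1.52-fold lower than D2, adjusted p = 0.00174). The NF-kB regulator Nfkbiz fell by 1.01 ± 0.16 (0.00307) after -2.26, a call lost without the slide block (adjusted p 0.292). Ccl5, a lymphocyte chemokine, read 7.02, 6.49 and 6.13 at D4 and 8.68, 9.5 and 8 at D2 and fell by 2.18 ± 0.38 (0.00507) with no first change (-0.01). Of 24 interferon response genes 15 had risen at the first step. At the second 2 fell (median -0.29), where 1.83% of all probes were called lower. These were Cxcl11 (-1.5 ± 0.37, 0.0347) and Psmb9 (-0.83 ± 0.21, 0.0483), lost for Cxcl11 without D4 s1E, D4 s2F, D2 s1C or D2 s1D (highest adjusted p 0.147) and for Psmb9 without any 1 of the 6 arrays (highest adjusted p 0.202). In the glycolysis and hypoxia list 4 of 23 fell and 1 rose (median -0.36). Tpi1, the triose phosphate isomerase, fell by 0.85 ± 0.15 (0.00592) after a rise of 1.07, and was not called against D0 (0.22, 0.334). Its call was lost without the slide block (adjusted p 0.0665). The lactate dehydrogenase Ldha fell by 0.89 ± 0.17 (0.00854) and the lactate exporter Slc16a3 by 1.02 ± 0.19 (0.00848), lost for Ldha without D4 s2F (adjusted p 0.0553) and for Slc16a3 without D4 s2F (adjusted p 0.0562). The phosphofructokinase Pfkp rose by 1.19 ± 0.22 (0.00723), lost without D4 s1K (adjusted p 0.0505). Of 31 cytosolic ribosomal protein genes 29 were below 0 (median -0.43), and 4 passed, all lower. The count was 0 to 2 when 1 array was left out, 0 without the slide block and 12 with median scaling. Rps2 fell by 1.29 ± 0.26 (0.0136) and lost its call without D4 s1K or D2 s2A (highest adjusted p 0.0812), Rpl13 lost its call without D4 s1E, D4 s1K, D4 s2F, D2 s1D or D2 s2A (highest adjusted p 0.137), and Rplp1 and Rps3 lost theirs without any 1 of the 6 arrays (highest adjusted p 0.176).

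Other programs gave no call or a single call in limma at this step, at which 4.09% of all probes were called. None of 24 DNA replication genes passed (1 at an unadjusted p under 0.05, and at most 1 called under the other normalizations), none of 20 immediate early genes (4 and 1), none of 22 genes of the ATF4 and serine pathway (3 and 1), none of 22 respiratory chain genes (1 and 3) and none of 12 genes of the EGF receptor family (2 and 0). None of 30 proteasome subunits passed either (3 at an unadjusted p under 0.05), but 29 of the 30 were below 0 (median -0.23). Their median was -0.32 on slide 1 and 0.02 on slide 2. With median scaling 6 were called, 1 with the authors' values and with quantile normalization and 0 with neqc. Among 24 mitosis genes Kif23 alone passed, 4.17% of the list and near the share of all probes. Kif23 changed by -0.87 ± 0.21 (adjusted p = 0.0313), and its call was lost without D4 s1E, D4 s1K, D4 s2F, D2 s1D or D2 s2A (highest adjusted p 0.141). Lists of this size would hold few calls at the share of all probes, and these misses do not show that the genes stayed level.

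**Figure D4:**
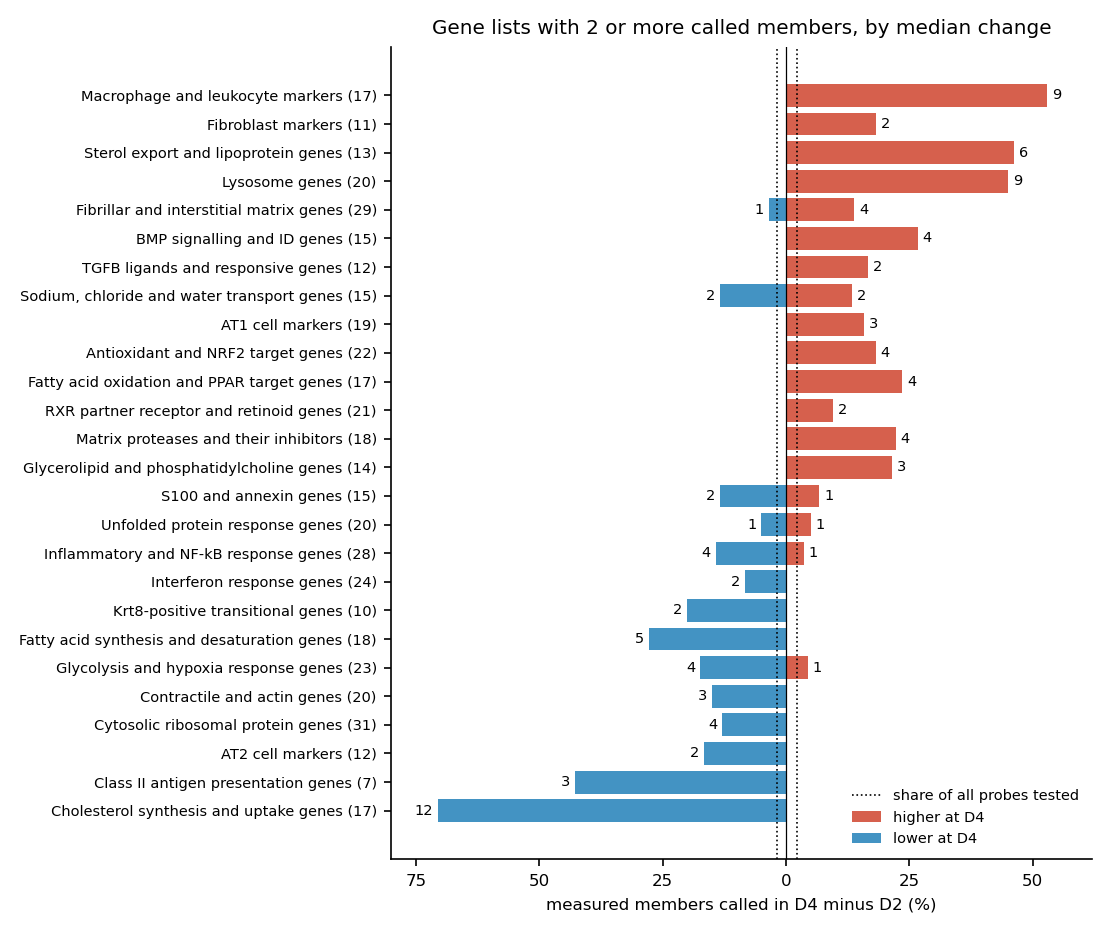
Percent of the measured members of each gene list called higher (right) or lower (left) at D4, for the lists with 2 or more calls, ordered by the median change, with the number of calls at the bar and of measured members in brackets; dotted lines give the share of all probes (2.26% higher, 1.83% lower). Cholesterol synthesis had 12 of 17 members lower, and macrophage markers 9 of 17 and lysosome genes 9 of 20 higher.

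The largest changes of named genes included several outside these programs. Rarres1, a retinoic acid responsive membrane protein, read 10.22, 10.17 and 9.38 on the D4 arrays and 6.64, 7.04 and 5.41 on the D2 arrays, a rise of 3.56 ± 0.26 (adjusted p = 1.49e-05) with no called first step. Hpse, heparanase, which cleaves heparan sulphate, read 11.33, 11.33 and 11.24 at D4 and 7.9, 8.08 and 8.27 at D2, after 10.35, 10.42 and 9.88 at D0. Its arrays of a day agreed closely, and it rose by 3.21 ± 0.19 (3.14e-06) after -2.13 to above D0 by 1.08 (0.000764). Arsi, an arylsulfatase, rose by 2.56 ± 0.16 (3.36e-06), with D4 arrays at 8.75, 8.87 and 9.09 and D2 arrays at 6.16, 6.13 and 6.75. Gcgr, the glucagon receptor, and Mmp8, a collagenase, were detected on no D2 array and were at least 4.96-fold (0.000224) and 2.61-fold (3.62e-05) higher at D4. Other Gcgr probes gave 2.99, which passed, and 0.86, detected on 1 D4 array, which did not. Folr2, a folate receptor, continued upward by 2.53 ± 0.29 (0.000284) after 1.46, and Akr1c3, an aldo-keto reductase, by 2.58 ± 0.41 (0.00293) after 1.54. St6galnac2, a sialyltransferase, rose by 2.71 ± 0.66 (0.0332), lost without any 1 of the 6 arrays (highest adjusted p 0.132). Me3, a mitochondrial malic enzyme, was detected on no D2 array, was at least 4.25-fold higher at D4 (1.64e-05) and was not called against D0 (-0.03, 0.933).

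Of the falls Car3, a carbonic anhydrase, was the largest. It read 7.78, 6.39 and 6.77 on the D4 arrays and 11.17, 11.55 and 10.64 on the D2 arrays, after 11.36, 11.58 and 10.48 at D0. The D2 arrays lay around the D0 level, so that the whole fall of 4.14 ± 0.57 (adjusted p = 0.00107) came in the second step. Lypd8, a GPI-anchored protein, read 6.59, 6.17 and 6.07 at D4 and 9.54, 9.82 and 10.29 at D2 and fell by 3.6 ± 0.4 (0.000245) after a rise of 3.13, and was not called against D0 (-0.47, 0.452). Cck, the peptide cholecystokinin, was detected on all D2 and no D4 arrays and was at least 3.03-fold lower at D4 (0.000245). Hgfac, which activates hepatocyte growth factor, fell by 2.89 ± 0.38 (0.000835) with no first change (-0.14). Cyp3a9, a cytochrome P450, was at least 4.3-fold lower (0.000143) after a first change of -4.03, and Fam25a fell by 2.59 ± 0.35 (0.000871) after a rise of 1.8. Ppp1r1b, a phosphatase inhibitor, fell by 2.49 ± 0.27 (0.000208), but its second probe, detected on all D4 and D2 arrays, gave -0.09, so the probes disagreed. Hbb-b1, a haemoglobin chain, read 5.93, 5.7 and 8.06 at D4 and 9.89, 8.83 and 9.87 at D2 and fell by 2.96 ± 0.49 (0.00413) after -3.22, in step with the erythroid marker sums.

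**Figure D5:**
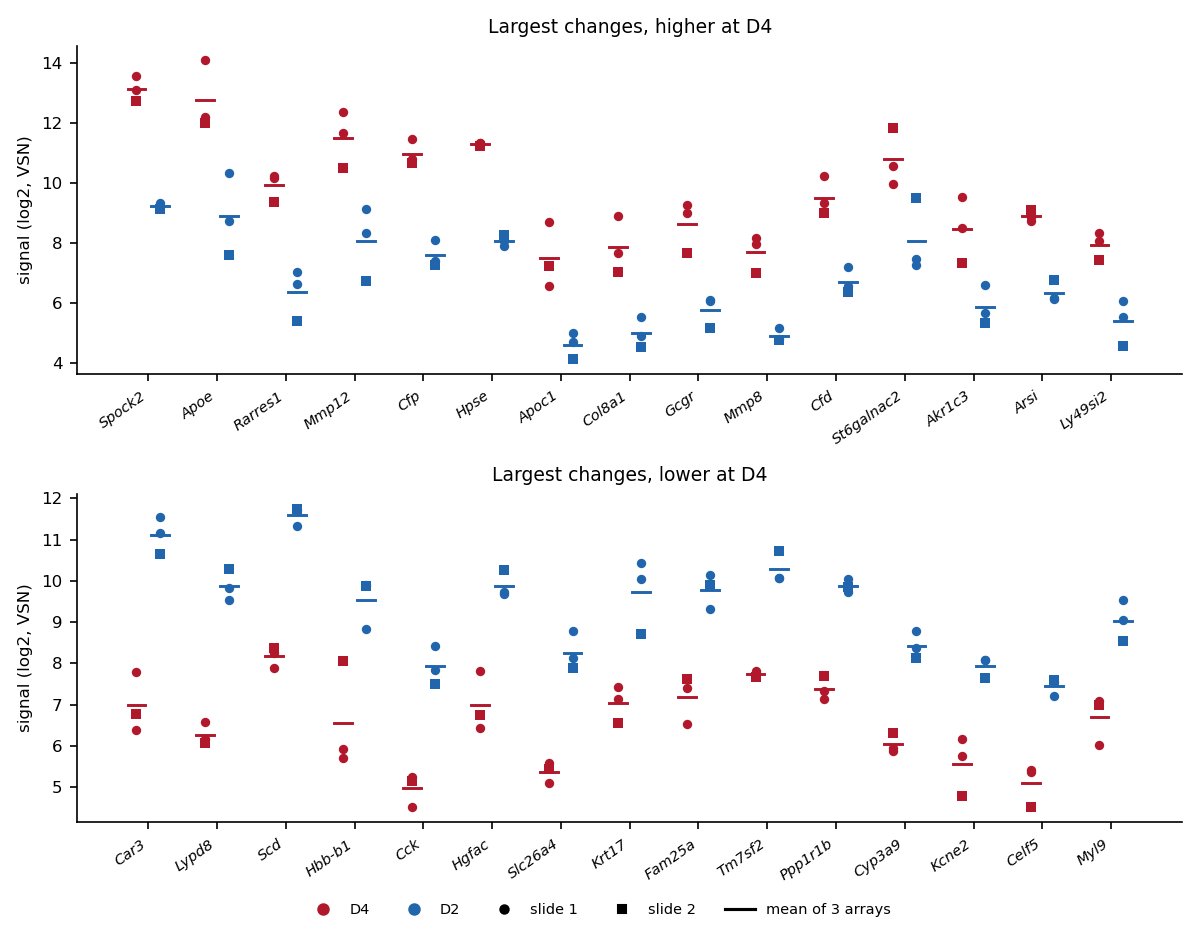
Log2 signals on each D4 array (red, left of each pair) and D2 array (blue, right), circles for slide 1 and squares for slide 2, with the mean of 3 arrays as a bar, for the 15 named genes with the largest rise and the 15 with the largest fall. In each of the 30 genes the D4 and D2 arrays do not overlap, which the rule for naming required, and the changes run between 2.55 and 3.91 upward and -2.34 and -4.14 downward.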

How the data were processed

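Raw BeadStudio signals of Illumina RatRef-12 arrays were used for 15 arrays of rat alveolar epithelial cells. The deposited raw intensity values carried no normalization between arrays, and the deposited detection p-values compared each probe with the control beads of the same array. The authors also deposited log2 values normalized with VSN in R 2.11.1, used here as an alternative. VSN was refitted to the raw signals of all 15 arrays (trimming at the quantile 0.9, 7 rounds, 5 slices). The refit was checked by rescaling the raw signals of an array, and the limma fit was tested on simulated data. With limma 3.58.1 in R 4.3.3, 1 mean per day plus slide group (slide 1 against slides 2 and 3) was fitted, and D4 minus D2, D2 minus D0 and D4 minus D0 were each called where p, adjusted by the Benjamini-Hochberg method across the 22523 probes, was under 0.05. A probe was called detected at a detection p under 0.01. Slide was read from the array barcode.

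Gene names came from platform annotation, updated through RefSeq, with 1 symbol for 13793 probes (13337 genes). Each gene was read on its probe with the highest mean signal. For a gene detected on no array of a day, the fold is a bound, from the mean of the brighter day against the higher of the lowest detected signal and the gene's own signal on each dim array. Named genes were those with 1 symbol, detected on every array of whichever day was brighter, called and not overlapping: the 15 largest in each direction, the 6 largest in each continuing or reversing class, up to 4 per list and direction, and always Sftpc, Aqp5, Pdpn, Cav1, Scd and Spock2, with list members that did not meet this rule given to complete a list. The 6 arrays were set by the sample labels. The choice of this step and of the 50 gene lists (773 of 929 genes measured) was made with earlier results of these data known.

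Alternatives were other normalizations, filters on dim probes, slide treated in other ways, fewer arrays, other thresholds and leaving out each array of D0, D2 and D4 in turn.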

Additional observations from a re-analysis of the deposited data

How the results depend on the processing

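The number of probes called between D4 and D2, 922 here, was 1551 with the authors' normalized values, 1479 with neqc, 1785 with quantile normalization, 1588 with median scaling, 1688 and 1524 when probes detected on under 3 arrays at 0.01 or 0.05 were left out, and 1452 with a trended and robust prior. It was 314 without the slide block, 532 on slide 1 alone, 396 at an adjusted p of 0.01, 575 with a change of at least 1 as well and 157 tested against a change of 0.5. Leaving out 1 array of D0, D2 or D4 gave 413 to 1098. Slide as 3 levels (980) or as a random block (886), and fits to D2 and D4 alone (732) or to D0, D2 and D4 (622) stayed within 1.5 times. Median scaling turned the balance of the calls (40.8% higher, against 55.3%). The share of probes called in both steps that reversed, 59.7%, was 63.8% with the authors' values, 65% with quantile normalization, 70% with median scaling, 64.4% without the slide block, 51.2% tested against 0.5 and 55.5% over the signs of all called probes, and 57.3 to 62.9% without 1 array. The causes were not tested. Of the 116 called named genes none reversed in any setting, 71 kept their call whichever of the D2 and D4 arrays was left out, 62 were called without the slide block and 77 on slide 1 alone. The D4 minus D2 change differed between slide 2 and slide 1 for 156 probes, none of them among the 922, and for 13 after the filter at 0.01. Slide 2 held 1 array of each of these 2 days, and a change that differs between slides also widens the spread in the main fit. The lack of overlap with the 922 therefore does not show that the step was alike on both slides. No paired analysis was possible because the labels give no replicate numbers, and slide is the only pairing they carry.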

Other observations

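Single genes of further lists moved at the second step. Of 18 matrix proteases and their inhibitors 4 rose and none fell. Mmp7, matrilysin, was detected on 2 D4 arrays and no D2 array and read 8.34, 7.66 and 5.79 on the D4 arrays and 5.78, 5.51 and 4.63 on the D2 arrays, at least 1.91-fold higher at D4 (limma adjusted p = 0.0108), with the call lost without D4 s1E or D2 s1D (highest adjusted p 0.0558). The membrane-bound Mmp14 rose by 0.84 ± 0.19 (0.0259) and the serine protease Htra1 by 0.77 ± 0.17 (0.0181), with the call lost for Mmp14 without D4 s1E, D4 s1K, D4 s2F, D2 s1C or D2 s1D (highest adjusted p 0.106) and for Htra1 without D4 s1K, D4 s2F, D2 s1C or D2 s1D (highest adjusted p 0.112). Of 12 TGFB genes the ligand Tgfb1 rose by 0.91 ± 0.18 (0.011) and the receptor Tgfbr1 by 0.91 ± 0.22 (0.0315), lost for Tgfb1 without D4 s1K or D2 s1C (highest adjusted p 0.0653) and for Tgfbr1 without D4 s1E, D4 s1K, D4 s2F, D2 s1D or D2 s2A (highest adjusted p 0.13). Igfbp7, an IGF binding protein, read 14.48, 14.4 and 14.67 at D4 and 13.48, 13.52 and 14.04 at D2. It rose by 0.83 ± 0.16 (0.00883) after a first change of -1.46. The call held whichever array was left out but was lost without the slide block (adjusted p 0.0592). Gzmb, granzyme B, was detected on all 3 D2 arrays and on no D4 array, at least 1.6-fold lower at D4 (0.00197). Ncl, nucleolin of the nucleolus, fell by 1.27 ± 0.22 (0.00505) after a first change of -1.49, with D4 arrays at 9.74, 9.38 and 9.77 and D2 arrays at 11.17, 10.63 and 10.9.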
